A study of Mus musculus with 6 samples.

Results

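Imprinted genes are transcribed mainly from the copy inherited from 1 parent. In this series they were compared between a tetraploid and a diploid line of mouse embryonic fibroblasts, which are mesenchymal cells cultured from embryos. The set held 36 genes named in advance, matched by symbol in the annotation of the array. Of these, 31 had a probe set assigned to them alone, out of 19938 genes measured in all. H19 and Kcnq1ot1, a pair of long non-coding RNAs, had no probe set under their symbol, and Snrpn, Ube3a and Gnas shared theirs with other genes, so the expression of these 5 was not analysed here.

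The tetraploid group held 3 samples of cells labelled as having abnormal DNA content, from what the series title calls transformed cells, and the diploid group held 3 samples labelled as normal control. Both were grown in DMEM with 10% serum to 80% confluence, and total RNA was hybridised to 1 Affymetrix whole-transcript array per sample. The sample names carry 1 stem per ploidy, and the effect of the line, of its transformation and of its ploidy cannot be told apart. Nothing in the labels says that samples came from separate cultures, so the p-values measure only the spread between these samples, which may be technical.

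Imprinting is set in the germ line, where methylation is placed on CG dinucleotides of control regions in either the egg or the sperm, and is then kept through the divisions of the embryo. The genes lie in clusters, and 1 control region can govern several of them. Many act on fetal growth: as a rule of thumb, paternally expressed genes such as Igf2 favour it and maternally expressed genes such as Grb10, Cdkn1c and Igf2r restrain it. Embryonic fibroblasts are a common cell type for the study of imprinting, because several of these genes are active in them and fall silent after birth.

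The upstream sequence of some, not all, members whose signal differed between lines or between single arrays is shown first, to give its CG content. Each was taken from RefSeq on the build GRCm38.p6, reads 5′ to 3′ on the strand given and ends 1 base before the outermost start of the gene; the last fills the gap between a pair of starts. Capitals mark CG dinucleotides. No methylation was measured, so the letters describe the sequence and not its state. The stretches were chosen by their place before a start, and whether they hold an imprinting control region was not examined.

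Grb10, chr11:12037429-12037670, minus strand, at least 41.4-fold lower in the tetraploid line, is the CG-richest of the 5.
Grb10: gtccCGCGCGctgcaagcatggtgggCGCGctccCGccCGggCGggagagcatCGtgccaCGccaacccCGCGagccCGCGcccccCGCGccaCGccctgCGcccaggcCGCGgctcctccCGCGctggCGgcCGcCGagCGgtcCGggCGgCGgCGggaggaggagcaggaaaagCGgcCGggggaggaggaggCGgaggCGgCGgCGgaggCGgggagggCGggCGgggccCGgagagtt
Zdbf2, chr1:63200108-63200357, plus strand, lies within the bounds of the gene Gpr1.
Zdbf2: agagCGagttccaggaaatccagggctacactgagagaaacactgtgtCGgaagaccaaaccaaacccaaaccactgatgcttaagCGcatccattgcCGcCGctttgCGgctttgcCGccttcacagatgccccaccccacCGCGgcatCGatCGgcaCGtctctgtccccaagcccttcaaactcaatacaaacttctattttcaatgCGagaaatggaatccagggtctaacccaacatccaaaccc
Nnat, chr2:157559828-157560077, plus strand, lies within the bounds of the gene Blcap.
Nnat: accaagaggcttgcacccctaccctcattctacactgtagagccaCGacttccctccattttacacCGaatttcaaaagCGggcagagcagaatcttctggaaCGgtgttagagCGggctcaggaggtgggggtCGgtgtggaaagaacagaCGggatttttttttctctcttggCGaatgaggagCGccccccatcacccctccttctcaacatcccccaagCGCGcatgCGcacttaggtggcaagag
Ndn, chr7:62348027-62348276, plus strand, was low on 1 tetraploid array.
Ndn: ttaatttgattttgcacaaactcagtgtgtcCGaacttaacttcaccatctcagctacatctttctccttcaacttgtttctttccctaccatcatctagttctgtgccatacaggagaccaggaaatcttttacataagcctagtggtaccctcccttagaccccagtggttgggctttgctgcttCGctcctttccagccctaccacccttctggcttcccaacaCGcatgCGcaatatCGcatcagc
The stretch between Peg3 and Usp29, chr7:6730463-6730558, plus strand, separates genes that are read in opposite directions and differed in their response.
Peg3-Usp29: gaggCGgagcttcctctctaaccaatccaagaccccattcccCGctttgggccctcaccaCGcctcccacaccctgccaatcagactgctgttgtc

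The Grb10 stretch held 40 CG in 242 bases and the Ndn stretch 5 in 250. Over windows from 250 bases before to 50 bases after a start, Grb10 had 45 CG, more than 98.1% of the 32851 windows of the table, whose median was 7. The letters TGCCGC, the core of the motif read by the imprint-keeping protein ZFP57, were searched on both strands. They occurred 3 times in the window of Zdbf2 shown here. Of the 30 listed members counted, Snrpn, Ube3a, Gnas and Kcnq1ot1 included, 10 held them in at least 1 window. By window this was 11 of 46, some of which overlap, against 11.6% of all windows of that length. Chromosome 18, where the member Impact lies, was left out of the windows of members but not of all windows. The letters hold a CG, and the median was 15 CG in the windows of members against 7 in all, so the shares are not matched on CG content. A match describes the letters only.

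Values are log2 signals as deposited. A background level was taken on each array as the 95th percentile of 1027 olfactory receptor genes, which lay between 7.01 and 7.41, and a gene is here called above background only where it exceeded the level of the same array. Members were tested with limma over all 19938 genes, two-sided, and called at a Benjamini-Hochberg adjusted p below 0.05. Fold changes against a line at or below background on all its arrays are lower bounds, computed with the values raised to the background level. Array medians differed by at most 0.0435, and a difference is therefore a change relative to the remaining genes, not in molecules per cell.

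The cells carried the signal of fibroblasts. All 11 of 11 fibroblast markers were above background on every array, with list means of 11.79 to 12.20 (tetraploid) and 12.25 to 12.46 (diploid). The means of some lists of markers of other cells differed as well. The mean of 6 endothelial markers was 5.43 to 5.55 on tetraploid and 6.46 to 6.70 on diploid arrays, with 0 and 1 to 2 of them above background. That of 8 macrophage markers was 4.59 to 5.03 and 5.34 to 7.32, with 0 to 1 and 1 to 4 above background, and that of 8 skeletal muscle markers 5.97 to 6.61 and 7.69 to 7.86, with 1 to 3 and 4 to 5 above background. In these lists 4 endothelial, 7 macrophage and 5 muscle markers did not pass the test. The 4 endothelial ones were above background on no array, so these list means rest on few genes. The mean of 8 trophoblast markers was 6.94 to 7.25 and 6.14 to 6.30, with 3 to 4 and 1 to 3 above background. Of these 8 only the placental gene Plac1 rose (at least 3.29-fold, limma adjusted p = 0.002753), and the other 7 did not pass. Of 11 neural markers 6 to 7 were above background on tetraploid and 7 on diploid arrays, of 6 adipocyte markers 1 to 2 and 2, of 7 epithelial markers 4 and 3 to 5, and of 8 pluripotent and germ cell markers 3 to 4 in both. The called markers apart from Plac1 all fell: the muscle genes Acta1, Des and Actn2, the endothelial genes Kdr and Emcn, the fibroblast genes Col5a1, Col1a1 and Fn1, and Lyz2, Krt18, Nefl and Cebpa, 1 each of the macrophage, epithelial, neural and adipocyte lists. Acta1, Des, Actn2, Kdr, Col5a1 and Plac1 kept their call under each alternative run. Emcn lost it with values raised to background (adjusted p = 0.3374). Col1a1, Fn1, Lyz2, Krt18, Nefl and Cebpa lost it under several settings, with an adjusted p of up to 0.1386, 0.1519, 0.09723, 0.4632, 0.4632 and 0.4632; leaving out 1 array was among those settings for all 6. Their part in the results that follow was not tested, and in bulk RNA fewer cells that express a gene cannot be told apart from less RNA per cell.

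Falls outnumbered rises among the imprinted genes. Of the 31 measured, 9 fell (Grb10, Cdkn1c, Gatm, Zdbf2, Peg3, Nnat, Zim1, Nap1l5 and Impact), 1 rose (Rasgrf1) and 21 did not pass the test. Over all genes 13.8% were called, 6.08% as rises and 7.75% as falls. With values raised to background 9 members and 19.8% of all genes were called. The median difference over the members was -0.44 and over all genes 0.07. In 11 members the 3 tetraploid values lay below the 3 diploid values and in 5 above them; over all genes this was so in 18.2% and 19.1%, together 37.3%. By allele, the 11 maternally expressed members held 4 falls and no rise (median difference -0.44), and the 20 paternally expressed members 5 falls and 1 rise (median -0.35). The allele is the one assigned to each gene in the list of members. The arrays do not tell the copies apart, and which copy was expressed in these cells was not measured. With values raised to background the maternal Gatm and Zim1 and the paternal Zdbf2 and Nap1l5 lost their call. Of the members 8, Zim1 and Nap1l5 among them, were above background on none of the 6 arrays, as were 35.4% of all genes.

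**Figure D1:**
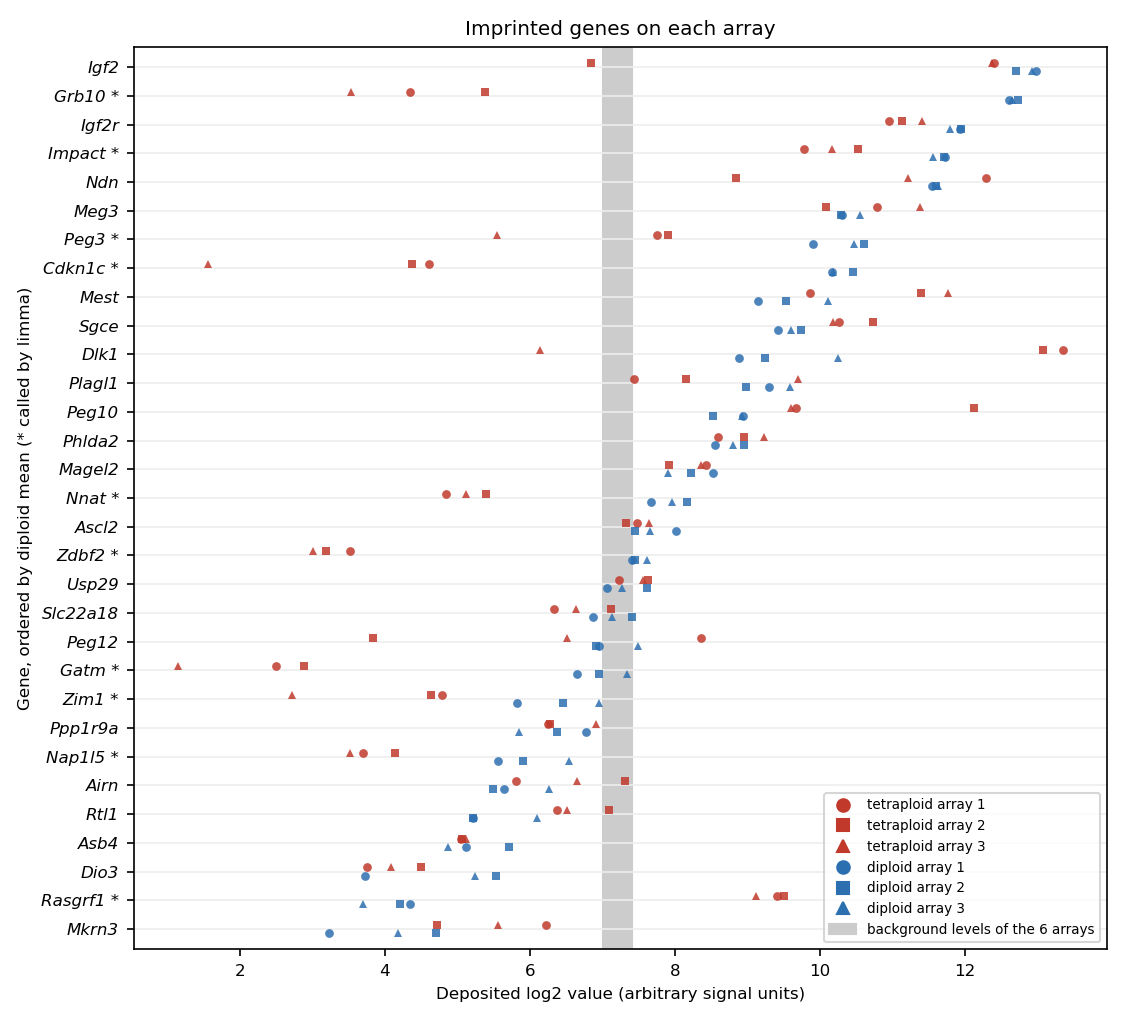
Deposited log2 value of each of the 31 measured imprinted genes on the 3 tetraploid (red) and 3 diploid (blue) arrays, with the range of background levels in grey; an asterisk marks a gene called by limma. Grb10 and Cdkn1c lie right of the grey band on the diploid arrays and left of it on the tetraploid arrays, Rasgrf1 shows the opposite, and Igf2 and Dlk1 each have 1 tetraploid array left of the band.

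Of the 31 members, Grb10 and Cdkn1c, both maternally expressed restrainers of growth, had the most negative differences. Grb10, an adaptor that dampens signalling from the insulin and IGF1 receptors and is expressed from the maternal copy in most tissues outside neurons, read 4.34, 5.39 and 3.54 on tetraploid arrays 1 to 3. The diploid arrays read 12.61, 12.73 and 12.65. All 3 tetraploid arrays were below background and all 3 diploid arrays far above it, a fall of at least 41.4-fold (difference -8.24, SE 0.44, limma adjusted p = 2.888e-04). Among the 10 measured genes nearest to Grb10 there were 2 falls and 1 rise. The rise was in Fignl1, a DNA repair gene (3.63-fold, adjusted p = 0.01155), and the falls were in Cobl and Plek, both below background on all arrays. Leaving out diploid array 2 ended the Plek call (adjusted p = 0.05915). For Cobl any 1 array but tetraploid array 1 did so (0.05391 to 0.1218).

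Cdkn1c encodes p57KIP2, an inhibitor of cyclin-dependent kinases that is expressed from the maternal copy. Its tetraploid values were 4.62, 4.38 and 1.57 and its diploid values 10.16, 10.45 and 10.18. Here too the tetraploid arrays were all below background, and the fall was at least 7.86-fold (difference -6.74, SE 0.76, limma adjusted p = 0.003742; -5.77 without tetraploid array 3). Its cluster on distal chromosome 7, whose control region lies at the start of the non-coding RNA gene Kcnq1ot1, did not move as a whole. Phlda2, a maternally expressed restrainer of placental growth, stood at 8.59, 8.96 and 9.23 against 8.55, 8.95 and 8.80 and overlapped between the lines (difference 0.16, SE 0.24, adjusted p = 0.718). The transporter gene Slc22a18, above background on diploid arrays 2 and 3 alone, stood at 6.33, 7.13 and 6.64 against 6.87, 7.41 and 7.14 (adjusted p = 0.3415). Ascl2, a transcription factor of the trophoblast, stood at 7.48, 7.32 and 7.64 against 8.02, 7.46 and 7.66 (adjusted p = 0.5565).

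Several other genes of that cluster fell with Cdkn1c. Of the 16 measured non-member neighbours of its members 6 fell and 10 did not pass, a share of 37.5% against 7.75% of falls over all genes. They were picked out after their values were seen: the decoy death receptor genes Tnfrsf23 (5.96-fold lower, limma adjusted p = 0.004026) and Tnfrsf22 (3.49-fold, 0.008349), Tssc4 (3.00-fold, 0.009808), the tetraspanin gene Cd81 (2.28-fold, 0.02331), R74862 (at least 1.57-fold, 0.02332), and Tnfrsf26, which was below background on all arrays. Tnfrsf23 was above background on 1 tetraploid array, and Tnfrsf22 and Tssc4 on 2, so the size of these folds rests in part on values not above background. The call of Tnfrsf26 ended with values raised to background (limma adjusted p = 0.4632). The calls of Cd81 and R74862 ended with replicate number as a block (adjusted p 0.0579 and 0.05188). That of Cd81 ended without any 1 array but tetraploid array 3 (adjusted p 0.05037 to 0.09359), and that of R74862 without each diploid array in turn or tetraploid array 2 (0.05644 to 0.09616).

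Gatm, a creatine synthesis gene expressed from the maternal copy in the placenta, stood at 2.50, 2.89 and 1.15 on the tetraploid arrays and at 6.65, 6.96 and 7.34 on the diploid arrays. The groups did not overlap and the gene was called (adjusted p = 0.002091), but only diploid array 3 was above background. With values raised to background the difference was 0.014 (adjusted p = 0.9358), so no fold is given. Its 10 neighbours did not pass the test. Igf2r, the maternally expressed receptor that takes up IGF2 for degradation, stood at 10.95, 11.14 and 11.41 against 11.94, 11.95 and 11.79. The tetraploid values were all lower, without passing the test (difference -0.73, SE 0.21, limma adjusted p = 0.06012; over the alternatives 0.007047 to 0.1935, called with values raised to background, low genes left out or a variance trend). Airn, the paternal non-coding RNA that overlaps Igf2r, was below background on every array.

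Among paternally expressed genes 5 fell and 1 rose. Peg3, a zinc finger gene, stood at 7.75, 7.91 and 5.55 on the tetraploid arrays and at 9.91, 10.61 and 10.48 on the diploid arrays. Tetraploid arrays 1 and 2 were just above background and array 3 below it, and Peg3 was 9.60-fold lower (difference -3.26, SE 0.62, limma adjusted p = 0.01871). The size of the fold rested on array 3: the difference was -2.50 without it and -2.69 with values raised to background. The call ended without diploid array 2 or 3 (adjusted p 0.06981 and 0.06506). Usp29 starts on the other strand beyond the 96 bases printed above and is also paternally expressed. It stood at 7.23, 7.63 and 7.56 against 7.07, 7.62 and 7.27, close to background in both lines and overlapping (difference 0.16, SE 0.23, adjusted p = 0.7166). The third member there, the maternally expressed Zim1, lay at 4.79, 4.63 and 2.73 against 5.82, 6.46 and 6.95, below background throughout. Its call (adjusted p = 0.04124) ended with values raised to background (0.4632), with the replicate block (0.08099) and when tetraploid array 2 or 1 of the diploid arrays was left out (0.06982 to 0.1272). The 10 neighbours of this cluster did not pass the test.

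Zdbf2, a zinc finger gene that is active from the paternal copy, stood at 3.52, 3.19 and 3.02 on the tetraploid arrays and at 7.42, 7.45 and 7.62 on the diploid arrays. The groups lay far apart with little spread (difference -4.25, SE 0.21, limma adjusted p = 2.237e-04). The diploid values were only just above background, so the bound is a 1.15-fold fall, and raising values to background ended the call (adjusted p = 0.4209). Of its 10 neighbours 2 fell and 8 did not pass. They were Gpr1, in whose bounds the printed Zdbf2 sequence lies and which was below background on all arrays, and the adhesion gene Adam23 (difference -3.01, adjusted p = 0.03383). Adam23 was above background on 1 tetraploid array, and its difference was -2.32 with values raised to background, -3.77 without tetraploid array 1 and -2.22 without tetraploid array 3. Leaving out tetraploid array 2 or 1 of the diploid arrays ended the Adam23 call (0.08968 to 0.1026), and leaving out any 1 array but tetraploid array 1 that of Gpr1 (0.06536 to 0.08672).

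Nnat, which encodes a small membrane proteolipid and lies within the gene Blcap, stood at 4.84, 5.40 and 5.12 against 7.67, 8.16 and 7.96. It was below background on all tetraploid arrays and fell by at least 1.56-fold (difference -2.81, SE 0.24, limma adjusted p = 0.001277). Blcap itself was 2.12-fold lower (adjusted p = 0.01432; 0.06514 and 0.06938 without diploid array 1 or 2), and the other 9 neighbours did not pass. Nap1l5, a nucleosome assembly family gene, stood at 3.70, 4.15 and 3.52 against 5.56, 5.90 and 6.54 and was called (adjusted p = 0.007422) although below background on every array. With values raised to background it lost its call (adjusted p = 0.4632). Its neighbours Herc3 (at least 1.57-fold, adjusted p = 0.04227) and Abcg2 (2.41-fold, 0.03423) fell and 8 did not pass. The Herc3 call ended without any 1 array but tetraploid array 1 (0.05025 to 0.1257) and that of Abcg2 without tetraploid array 2 or each diploid array in turn (0.0651 to 0.1111).

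Impact, a regulator of translation under amino acid shortage, was above background on all 6 arrays. It stood at 9.78, 10.52 and 10.17 against 11.73, 11.71 and 11.55, and the groups did not overlap. It was 2.85-fold lower (difference -1.51, SE 0.24, limma adjusted p = 0.01125), a call that ended without diploid array 2 (adjusted p = 0.05425). Of its 10 neighbours on chromosome 18, 2 rose, the lipid transfer gene Osbpl1a (2.21-fold, adjusted p = 0.01019) and Ttc39c (2.81-fold, 0.02054), and 8 did not pass. Without diploid array 2 the calls of both ended (adjusted p 0.05707 and 0.08343), and that of Ttc39c also without diploid array 1 or 3 (0.06292 and 0.05677).

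Rasgrf1, an exchange factor that loads RAS proteins with GTP and is expressed from the paternal copy, was the member that rose. It stood at 9.41, 9.50 and 9.11 on the tetraploid arrays and at 4.35, 4.22 and 3.70 on the diploid arrays. All tetraploid arrays were above background and all diploid arrays below it, so the rise was at least 4.52-fold (difference 5.25, SE 0.25, limma adjusted p = 1.672e-04). Of its 10 neighbours 1 fell, Zic1 (adjusted p = 0.04388; 0.08134 to 0.1188 without tetraploid array 3 or each diploid array in turn, and 0.05456 with the replicate block), and the median difference over the 10 was -0.22.

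**Figure D2:**
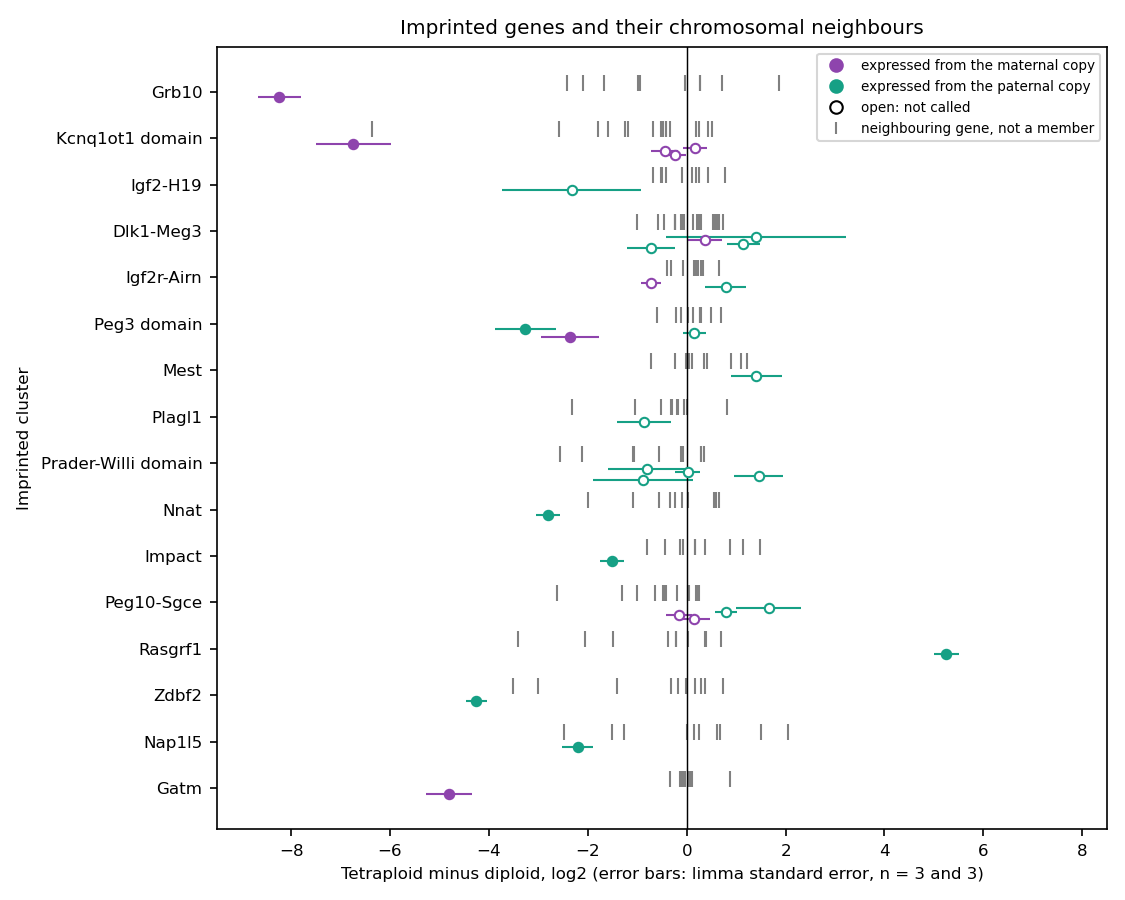
Difference between the lines, tetraploid minus diploid on the log2 scale, for the 31 measured imprinted genes by cluster (circles with the limma standard error, coloured by expressed allele and filled where called) and for their nearest non-member genes (grey ticks). Rasgrf1 stands at 5.25 and Grb10 at -8.24, each outside the range of its neighbours, while the Kcnq1ot1 domain holds both Cdkn1c at -6.74 and Phlda2 at 0.16.

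Over all clusters, 173 neighbouring genes that are not members were measured, of which 5 rose, 17 fell and 151 did not pass. Rises made up 2.89% of them and falls 9.83%, against 6.08% and 7.75% over all genes, and their median difference was -0.06 (all genes 0.07).

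Some members were silent or low on a single tetraploid array and not on the others. Among the 17 members above background on at least 1 tetraploid array, 7 (Igf2, Dlk1, Peg3, Plagl1, Ndn, Peg12 and Peg10) spread by at least 2 log2 over the 3 tetraploid arrays, against 3.8% of all genes above background there. All 7 are paternally expressed, as were 13 of the 17 counted. The maternally expressed Cdkn1c and Zim1 also spread by over 2 log2, by 3.05 and 2.07, but below background on every tetraploid array. None of the 22 members above background on a diploid array spread that far over the diploid arrays, where 0.519% of genes did. The limit of 2 log2 was chosen after the values were seen, and these counts are a description without a test. By detection, 5 members (Igf2, Dlk1, Peg3, Peg12 and Ascl2) were above background on some tetraploid arrays only, against 12.2% of all genes, and 4 (Usp29, Slc22a18, Peg12 and Gatm) on some diploid arrays only, against 10.2%.

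Igf2, the fetal growth factor, read 12.41, 6.85 and 12.37 on the tetraploid arrays, in order, against 12.98, 12.70 and 12.92 on the diploid arrays. Array 2 was below background while arrays 1 and 3 lay close under the diploid values. The 3 tetraploid values were all below the diploid values, but their SD of 3.20 left the difference of -2.33 uncalled (SE 1.41, limma adjusted p = 0.3284). The 10 neighbours of Igf2 did not pass the test.

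Ndn and Peg12, of the Prader-Willi domain on central chromosome 7, were lowest on the same tetraploid array 2. Ndn, which encodes the growth-suppressing protein necdin, stood at 12.29, 8.85 and 11.21 against 11.55, 11.60 and 11.63. Peg12, a gene of the Frat family, stood at 8.36, 3.83 and 6.52 against 6.96, 6.91 and 7.49. On tetraploid array 1 both genes lay above every diploid array, and on array 2 below every one. Magel2, a MAGE family gene of the same domain, read 8.43, 7.91 and 8.37 against 8.52, 8.22 and 7.91, and Mkrn3 was below background throughout. None of these differences was called (adjusted p 0.1008 to 0.9707). Of the 10 neighbours of the domain 2 fell, the receptor gene Chrna7 and the transcription factor gene Klf13, and 8 did not pass. The Klf13 call ended with the replicate block (adjusted p = 0.05503) and without each diploid array in turn (0.0646 to 0.07271).

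Dlk1 had the widest spread of the 31 members. This paternally expressed gene encodes a membrane protein that restrains differentiation of fat cell precursors. It stood at 13.35, 13.08 and 6.14 on the tetraploid arrays and at 8.88, 9.24 and 10.25 on the diploid arrays. Tetraploid arrays 1 and 2 were above every diploid array, and array 3 was below background and below every diploid array. The difference of 1.40 was not called (SE 1.82, limma adjusted p = 0.6713). Without tetraploid array 3 it was 3.76 (adjusted p = 0.009826). Meg3, the maternally expressed non-coding RNA of the same cluster on distal chromosome 12, stood at 10.79, 10.09 and 11.39 against 10.30, 10.29 and 10.56, and so was highest on the array where Dlk1 was lowest (difference 0.37, adjusted p = 0.5285). Rtl1 and Dio3 were below background throughout, although Rtl1 was called with low genes left out, with a variance trend and without diploid array 3 (adjusted p 0.03172 to 0.04964), and the 20 neighbours, many of them microRNA genes, did not pass the test.

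Plagl1 encodes a zinc finger transcription factor that slows division. It stood at 7.43, 8.16 and 9.70 against 9.30, 8.98 and 9.59, so that tetraploid arrays 1 and 2 were below every diploid array and array 3 above every one. The difference was -0.86 (SE 0.55, limma adjusted p = 0.3543), and -1.49 without tetraploid array 3 (adjusted p = 0.04099). Peg10, a gene derived from a retrotransposon and needed for the placenta, stood at 9.67, 12.12 and 9.60 against 8.94, 8.53 and 8.92. All tetraploid arrays were above the diploid arrays and array 2 stood apart (difference 1.66, SE 0.66, adjusted p = 0.1459). Sgce, the sarcoglycan gene that lies next to Peg10, stood at 10.26, 10.73 and 10.18 against 9.43, 9.74 and 9.61, again with every tetraploid value above every diploid one (difference 0.80, SE 0.23, adjusted p = 0.06235; over the alternatives 0.008645 to 0.1918, called under the settings named for Igf2r). The maternally expressed Asb4 and Ppp1r9a of that cluster were below background throughout.

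**Figure D3:**
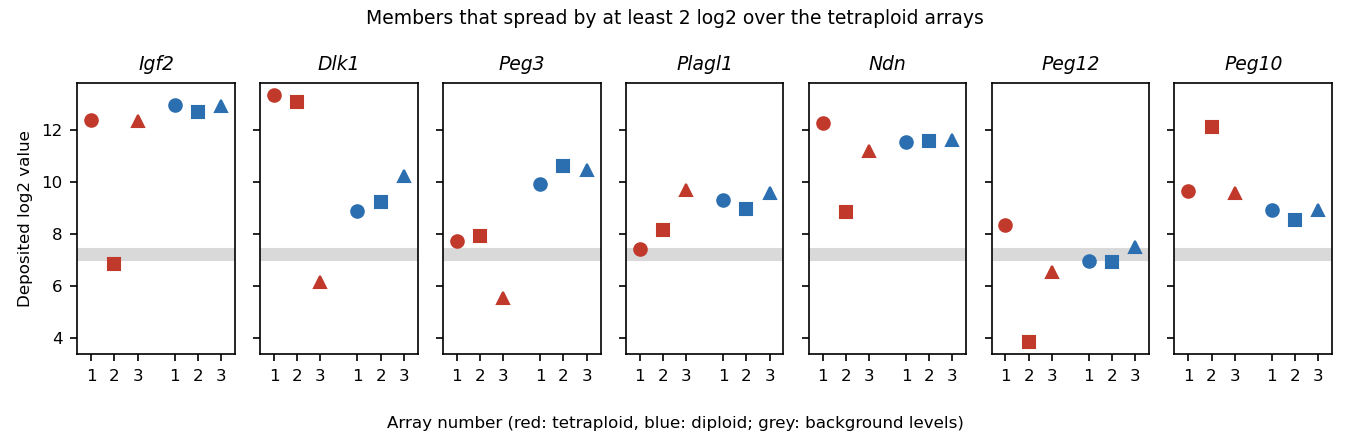
Deposited log2 value on each array (red, tetraploid arrays 1 to 3; blue, diploid arrays 1 to 3) for the 7 imprinted genes that spread by at least 2 log2 over the tetraploid arrays, with background levels in grey. Igf2, Ndn and Peg12 are lowest on tetraploid array 2, Dlk1 and Peg3 on array 3 and Plagl1 on array 1, while Peg10 is highest on array 2.

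Mest, a paternally expressed gene of the hydrolase family that marks growing mesoderm, stood at 9.86, 11.40 and 11.77 against 9.15, 9.53 and 10.11. Tetraploid arrays 2 and 3 were above every diploid array and array 1 lay among them (difference 1.41, SE 0.52, limma adjusted p = 0.1235). Without tetraploid array 1 the difference was 1.98 (adjusted p = 0.02391), and it was also called with values raised to background (0.04429) and with a variance trend (0.04261). Among its 10 neighbours Copg2, which overlaps Mest at its end, was 1.86-fold higher (adjusted p = 0.04046) and Cep41 2.33-fold (0.03004), and 8 did not pass. Leaving out any 1 array but tetraploid array 3 ended both calls (adjusted p 0.06854 to 0.1329), as did the replicate block (0.07781 and 0.06526).

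Genes whose products set or keep imprints were mostly higher in the tetraploid line where they were called. Of 27 measured, 8 rose (Hells, Uhrf1, Ezh2, Rad21, Dnmt1, Smc3, Smc1a and Ehmt2), 2 fell (Dnmt3a and Eed) and 17 did not pass. Rises made up 29.6% and falls 7.41%, against 6.08% and 7.75% over all genes. The median difference was 0.58, against 0.07 over all genes. The 27 include Tet1, Tet2 and Tet3, whose products act in the removal of methylation and which did not pass. Uhrf1, which brings the maintenance methyltransferase to newly copied DNA, stood at 11.27, 10.84 and 10.75 against 8.91, 8.97 and 9.48, 3.57-fold higher (limma adjusted p = 0.006782). Hells, a chromatin remodeller needed for DNA methylation, stood at 11.13, 11.20 and 10.70 against 9.07, 8.91 and 9.52, 3.59-fold higher (0.006637). For both, every tetraploid value was above every diploid value.

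The cohesin subunit genes Rad21 and Smc3, whose products shape loops at imprinted control regions together with CTCF, were 2.62-fold (limma adjusted p = 0.005753) and 1.98-fold higher (0.01578). Dnmt1, the maintenance methyltransferase gene, was 2.36-fold higher (0.02452), and Dnmt3a, which places imprints in germ cells, was 2.17-fold lower (0.01886). Zfp57 and Trim28, which hold methylation at control regions, did not pass, with differences of 0.58 (0.231) and 0.11 (0.8002). Of these 10 calls 4 were left with the replicate block, without tetraploid array 2 and without diploid array 1, and 3 without diploid array 2 and without diploid array 3; the calls of Rad21, Hells and Uhrf1 held in every alternative run. Eed, a subunit of the Polycomb complex, also lost its call with the mean of its probe sets (difference -0.37, adjusted p = 0.3666).

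**Figure D4:**
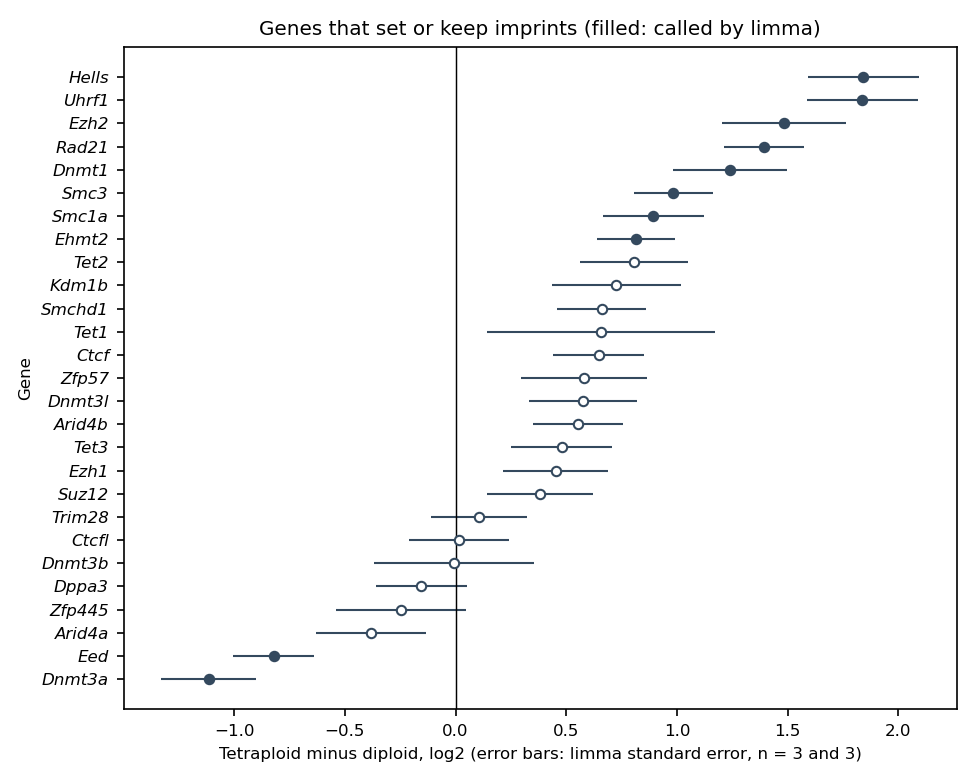
Difference between the lines, tetraploid minus diploid on the log2 scale with the limma standard error, for 27 measured genes. They are listed as setting or keeping imprints, with Tet1, Tet2 and Tet3 included. Filled circles were called. Hells and Uhrf1 stand highest at 1.84 and Dnmt3a lowest at -1.12.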

How the data were processed

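Total RNA of 3 tetraploid and 3 diploid samples was measured on Affymetrix whole-transcript arrays. The values were made by the authors with Affymetrix Expression Console, per the submitters' processing notes; its version and algorithm are not given in the sources used here. Each deposited value is taken as log2, since 2 raised to it is a whole number of hundredths, within 0.001, in 100% of values low enough to show such a step. Arrays give no counts, so their number limits the precision.

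Of 28944 probe sets, 21789 carried 1 gene symbol in the platform table. For 999 genes with several, the 1 of highest 6-array mean stood for the gene, which left 19938 genes; each measured member had 1. RefSeq (GRCm38.p6) gave chromosomes and gene order, and the 5 nearest measured non-member genes on each side of a member were taken as its neighbours. The comparison used limma (version 3.58.1, R 4.3.3, lmFit and eBayes) and was tested first on simulated data. For single values, the smallest two-sided p of an exact permutation test is 0.1 here. Both lines number their samples alike, but deviations of same-numbered arrays correlated at 0.10, 0.031 and -0.046, and no replicate block was used.

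The members and gene lists were chosen with earlier results of these data known. All members are accounted for, and of the imprint-keeping genes the 4 called genes with the smallest adjusted p were to be named; others named were chosen after their values were seen. Alternatives were another normalization, a floor, a filter, a probe set mean, a variance trend, array weights, a replicate block and leaving out each array.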

Additional observations from a re-analysis of the deposited data

How the results depend on the processing

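Results of the limma fit were recomputed under 8 alternative settings and with each array left out. Over all genes 2758 were called, and 1647 with the replicate block, whose numbers are not known to pair the samples; the fits without 1 array called 839 to 2522. The count of members that rose was 1, and became 3 with values raised to background, 3 with low genes left out, 4 with a variance trend and 1 to 2 without 1 array. The count of members that fell was 9, 6 with values raised to background, 6 with low genes left out and 6 to 10 without 1 array. Igf2r, which did not pass above, was among the 6 under either setting. Called imprint-keeping genes numbered 10, 4 with the replicate block and 3 to 11 without 1 array, and called neighbours 22 and 7 to 23. Of the 10 called members all kept their call under quantile normalization, centred medians, a variance trend and array weights, and 6 with values raised to background.

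Directions turned in several members. With values raised to background, any gene below it on all 6 arrays takes the difference 0.12 (Dio3, Zim1, Asb4 and Nap1l5, the neighbours Cobl, Gpr1, Phactr2, Plek and Tnfrsf26, and the markers Nefl and Cebpa); Peg12 became 0.36, Slc22a18 0.0321, Gatm 0.0138 and Zic1 0.026. Quantile normalization gave -0.018 for Magel2 and 0.0122 for Asb4. Over the fits without 1 array Ndn ranged from -1.56 to 0.16 and Peg12 from -1.94 to 0.32, both positive without tetraploid array 2 only; Ndn lay above background on all 6 arrays. Magel2 ranged from -0.13 to 0.18, Asb4 from -0.34 to 0.0805 and Ppp1r9a from -0.0924 to 0.37. Signal over background limits what can be said of genes at or below it.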
